A study of Mus musculus with 24 samples.

Results

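DNA replication and S-phase genes, 51 of the 37229 gene symbols in the deposited count table, were followed through 24 single mouse embryos. The genes were chosen by symbol, from what their proteins do at the replication fork or at entry into S phase. The choice was made with earlier results of these data known. They cover 11 roles: the origin recognition complex, licensing factors, the MCM2-7 helicase, helicase activation, primase and polymerases, the sliding clamp and its loader, single-strand binding, Okazaki fragment maturation, deoxynucleotide supply, histone supply, and G1/S entry. All 51 were in both deposited tables and all 51 passed the filter on low counts. The embryos were of the ICR strain, conceived by in vitro fertilization, and the labels name no engineered allele. Control embryos stayed intact and were taken at the 8-cell stage (4 embryos), as morulae (5) and as blastocysts (3). Split embryos came from late two-cell embryos whose sister blastomeres were mechanically parted in a biopsy medium, after which each blastomere grew alone in a modified sodium hyaluronate gel. They were taken as 6 morulae and 6 blastocysts, 3 sister pairs at each stage. The biopsy medium, the micromanipulation and the gel culture went with the split embryos, so they cannot be told apart from the splitting itself, and no 8-cell split embryo is labelled. The stated purpose was to compare stages and embryo origins.

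Replication begins when the origin recognition complex, Cdc6 and Cdt1 load the MCM2-7 ring onto DNA, a step that geminin (Gmnn) blocks after S phase has begun. Cdc45 and the GINS complex turn the ring into an active helicase, RPA coats the exposed strands, primase and polymerase alpha start each strand, and the RFC loader places the PCNA clamp that holds the later polymerases. Flap endonuclease and ligase join the lagging strand, while ribonucleotide reductase, thymidylate synthase and thymidine kinase supply nucleotides and Slbp and CAF-1 supply histones. Cleavage-stage embryos divide without growing, first on stored maternal RNA and then on their own transcripts, and in cultured cells E2F factors drive many of these genes at the G1/S boundary.

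The sequences before the start sites show how far these genes share E2F letters. In the RefSeq promoter table (build GRCm38.p6, 250 bases before to 50 after each start), 42 of the 51 genes had an entry. The letters searched on both strands were TTTGGCGC, TTTCGCGC, TTTCCCGC and TTTGGCGG. They were found in 16 of the 42 promoters (38.1%) and in 654 of 27025 promoters of all genes (2.42%). The CCAAT pentamer, read on either strand, was in 24 of the 42 (57.1%) and in 37.9% of all promoters. Of 5 MCM2-7 genes with an entry, 4 held E2F letters (Mcm3, Mcm5, Mcm6 and Mcm7), whereas of the 10 genes described below as higher in split than in control blastocysts, 1 did (Rfc3). A match describes letters and is not a bound site. Other E2F spellings were not searched, so a promoter without a match may still hold one. The 6 promoters below are shown to set the MCM2-7 subunits beside genes that were higher in split blastocysts, in lower case with matches of either motif in capitals. In Mcm5 and Mcm6 a pair of E2F spellings on opposite strands overlapped by 4 bases, and in Mcm7 an E2F match ran into a CCAAT. They lie at chr8:75109259-75109558 on the plus strand (Mcm5), chr1:128359656-128359955 on the minus strand (Mcm6), chr5:138171834-138172133 on the minus strand (Mcm7), chr5:151651159-151651458 on the minus strand (Rfc3), chr4:132768110-132768409 on the plus strand (Rpa2) and chr5:30073576-30073875 on the minus strand (Tyms, which held no match of either motif).
Mcm5: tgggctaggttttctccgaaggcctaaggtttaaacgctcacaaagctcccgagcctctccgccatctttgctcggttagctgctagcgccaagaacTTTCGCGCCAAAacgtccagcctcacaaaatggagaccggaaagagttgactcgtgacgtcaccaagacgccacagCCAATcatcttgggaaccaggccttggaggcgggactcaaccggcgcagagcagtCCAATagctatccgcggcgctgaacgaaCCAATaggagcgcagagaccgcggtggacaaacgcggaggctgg
Mcm6: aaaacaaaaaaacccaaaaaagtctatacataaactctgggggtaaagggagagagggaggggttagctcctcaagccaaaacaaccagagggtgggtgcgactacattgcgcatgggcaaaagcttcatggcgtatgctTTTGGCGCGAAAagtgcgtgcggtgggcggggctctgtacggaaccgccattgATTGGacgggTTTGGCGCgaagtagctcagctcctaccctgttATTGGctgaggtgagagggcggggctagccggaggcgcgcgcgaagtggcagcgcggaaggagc
Mcm7: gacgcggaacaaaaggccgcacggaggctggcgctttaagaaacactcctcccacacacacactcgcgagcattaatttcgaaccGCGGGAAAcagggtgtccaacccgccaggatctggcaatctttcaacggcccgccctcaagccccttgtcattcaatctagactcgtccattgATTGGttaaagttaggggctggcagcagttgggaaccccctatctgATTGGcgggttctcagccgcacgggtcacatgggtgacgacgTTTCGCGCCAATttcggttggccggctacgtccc
Rfc3: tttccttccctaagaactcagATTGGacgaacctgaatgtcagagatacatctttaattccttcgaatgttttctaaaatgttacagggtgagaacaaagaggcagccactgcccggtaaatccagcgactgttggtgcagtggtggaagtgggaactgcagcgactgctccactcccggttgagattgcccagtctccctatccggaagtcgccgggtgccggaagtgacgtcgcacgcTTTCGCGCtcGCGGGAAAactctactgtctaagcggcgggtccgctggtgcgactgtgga
Rpa2: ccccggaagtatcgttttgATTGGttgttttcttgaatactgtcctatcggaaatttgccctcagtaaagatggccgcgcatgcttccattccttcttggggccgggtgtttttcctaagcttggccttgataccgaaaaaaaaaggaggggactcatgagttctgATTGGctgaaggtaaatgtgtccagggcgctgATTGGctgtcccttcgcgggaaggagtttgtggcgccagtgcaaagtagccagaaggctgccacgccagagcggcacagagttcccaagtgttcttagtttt
Tyms: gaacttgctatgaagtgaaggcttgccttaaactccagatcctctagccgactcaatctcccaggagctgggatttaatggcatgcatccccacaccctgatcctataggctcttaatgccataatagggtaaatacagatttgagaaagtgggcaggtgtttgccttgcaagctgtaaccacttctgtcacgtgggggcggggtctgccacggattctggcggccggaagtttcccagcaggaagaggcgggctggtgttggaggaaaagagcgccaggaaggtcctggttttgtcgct

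Libraries held 11.3 to 38.5 M counted reads, most in 8-cell embryos (26.3 to 38.5 M) and fewest in control blastocysts (11.3 to 12.7 M). Split embryos had fewer genes detected at equal depth than controls (10985 ± 588 against 12784 ± 330 in morulae, 13275 ± 728 against 14625 ± 789 in blastocysts, SD over libraries) and a lower mean mitochondrial share of counts (2.59% against 3.99%, and 1.69% against 4.2%). The summed level of 5 trophectoderm markers, the genes of the outer blastocyst layer, ran from 3.51 to 32 CPM (counts scaled to a fixed library total) in 8-cell embryos, 482 to 963 in control morulae, 198 to 2320 in split morulae, 1730 to 2670 in control blastocysts and 4060 to 6240 in split blastocysts, and none of the 5 was at 0 in every library of a group. The summed level of 5 markers of the morula and earlier stages was 24000 to 33500, 11300 to 13800, 7740 to 17300, 2760 to 3860 and 3690 to 6600 CPM in the same order of groups. Of these, Nlrp14 was at 0 in all control morulae and split blastocysts. Rfpl4 was at 0 in all split morulae and in all blastocysts of both kinds. That of 3 inner cell mass markers was 10.6 to 95.9, 264 to 413, 41.6 to 617, 192 to 248 and 211 to 391 CPM, with Sox2 at 0 in all 8-cell embryos. Of 8 cumulus and granulosa cell markers Foxl2, Amh, Inha and Fshr were at 0 in every library and Cyp19a1, Has2 and Ptx3 had counts in 1 or 2 libraries each. Star had counts in 3 of 4 8-cell embryos, 4 of 5 control morulae, 3 of 6 split morulae, 3 of 3 control blastocysts and 5 of 6 split blastocysts, and the 8 summed to at most 13.7 CPM. Of 5 blood markers Ptprc and Lyz2 were at 0 in every library, and the sum reached 121 CPM in 1 split morula, mostly Hba-a1 (107), and was 0.521 to 14.4 CPM in control and 11.7 to 48.7 in split blastocysts. Of 6 sperm markers Tnp1 and Smcp were at 0 in every library and the sum reached 5.51 CPM. The part that these differences have in the results below was not tested. Each embryo was lysed whole, so fewer cells of a type and less RNA per cell cannot be told apart.

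Per annotated exon length, replication genes differed widely in level. In TPM (transcripts on a fixed total per library, corrected for length), the highest mean over the 24 embryos was that of Gmnn (625), followed by Rrm2 (597), the regulated subunit of ribonucleotide reductase, Rfc4 (392) and Gins4 (384). The lowest were Fen1 (2.69), Chaf1a (3.00) and E2f1 (4.74). In 47 of the 51 genes every library had counts, and Gins2, E2f1, Chaf1a and Fen1 were each at 0 in 1 library. Exon bases of Fen1 (84.2%), Gins2 (67.3%) and Chaf1a (52.5%) are mostly shared with a gene on the other strand in the GENCODE annotation of build GRCm38, and the strand setting of the counting is not given in the sources used here, so the counts of these 3 genes are uncertain. Smaller shares of Orc2 (29.8%), Ccne2 (17.4%), Rfc2 (15.1%), Rfc4 (12.7%), Mcm7 (12.6%) and Rfc5 (10.7%) are overlapped in the same way.

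In TPM, subunits of the same complex were not at the same level. The length behind the TPM values, implied by counts over TPM, followed the annotated exon bases of each gene. A gene with many such bases, such as Rrm1 (11012), therefore ranks lower in TPM than in counts against a short gene, such as Gins4 (1349). The part of this in the ranks below was not tested. Within the origin recognition complex Orc6 had the highest mean TPM (172) and Orc1, the subunit that in human cells is degraded after G1, the lowest (14). Among the licensing factors Cdc6 was lowest (46.8) below Gmnn. Among helicase activators Gins4 (384) stood above Gins3 (21.9) although the GINS complex holds 1 copy of each of its subunits. In 8-cell embryos this spread was widest, with Gins4 at 518 ± 85.7, Gins1 at 301 ± 45.4, Gins3 at 40.3 ± 22.1 and Gins2 at 1.70 ± 1.24 TPM (SD, n = 4). In split blastocysts, which differ from those embryos in both stage and splitting, Gins2 was at 73.8 ± 26.3 TPM and Gins4 at 359 ± 35.2 (n = 3). In the fit of all 5 groups Gins2, a gene with uncertain counts, was not called between split and control blastocysts. Pold2, the accessory subunit of polymerase delta, was the highest of the primase and polymerase genes (72.5) and Pole, the catalytic subunit of polymerase epsilon, the lowest (8.45). Rfc4 was highest and Rfc5 lowest (43.4) of the clamp and loader genes, Rpa3 highest (171) and Rpa1 lowest (22.1) of RPA, and Lig1 (49.0) was above Fen1. Of the nucleotide genes Rrm2 was highest and Rrm1, the partner subunit of the same enzyme, lowest (28.0). Slbp (153) and Chaf1a bounded the histone genes, and Ccne1 (193) and E2f1 the G1/S genes. Summed over the 51 genes the level was 4586 ± 470 TPM in 8-cell embryos, 4793 ± 179 in control morulae, 5436 ± 783 in split morulae, 4130 ± 196 in control blastocysts and 5501 ± 626 in split blastocysts (SD over libraries), and the range of the split blastocysts (4515 to 6278) lay above that of the control blastocysts (3925 to 4315).

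**Figure D1:**
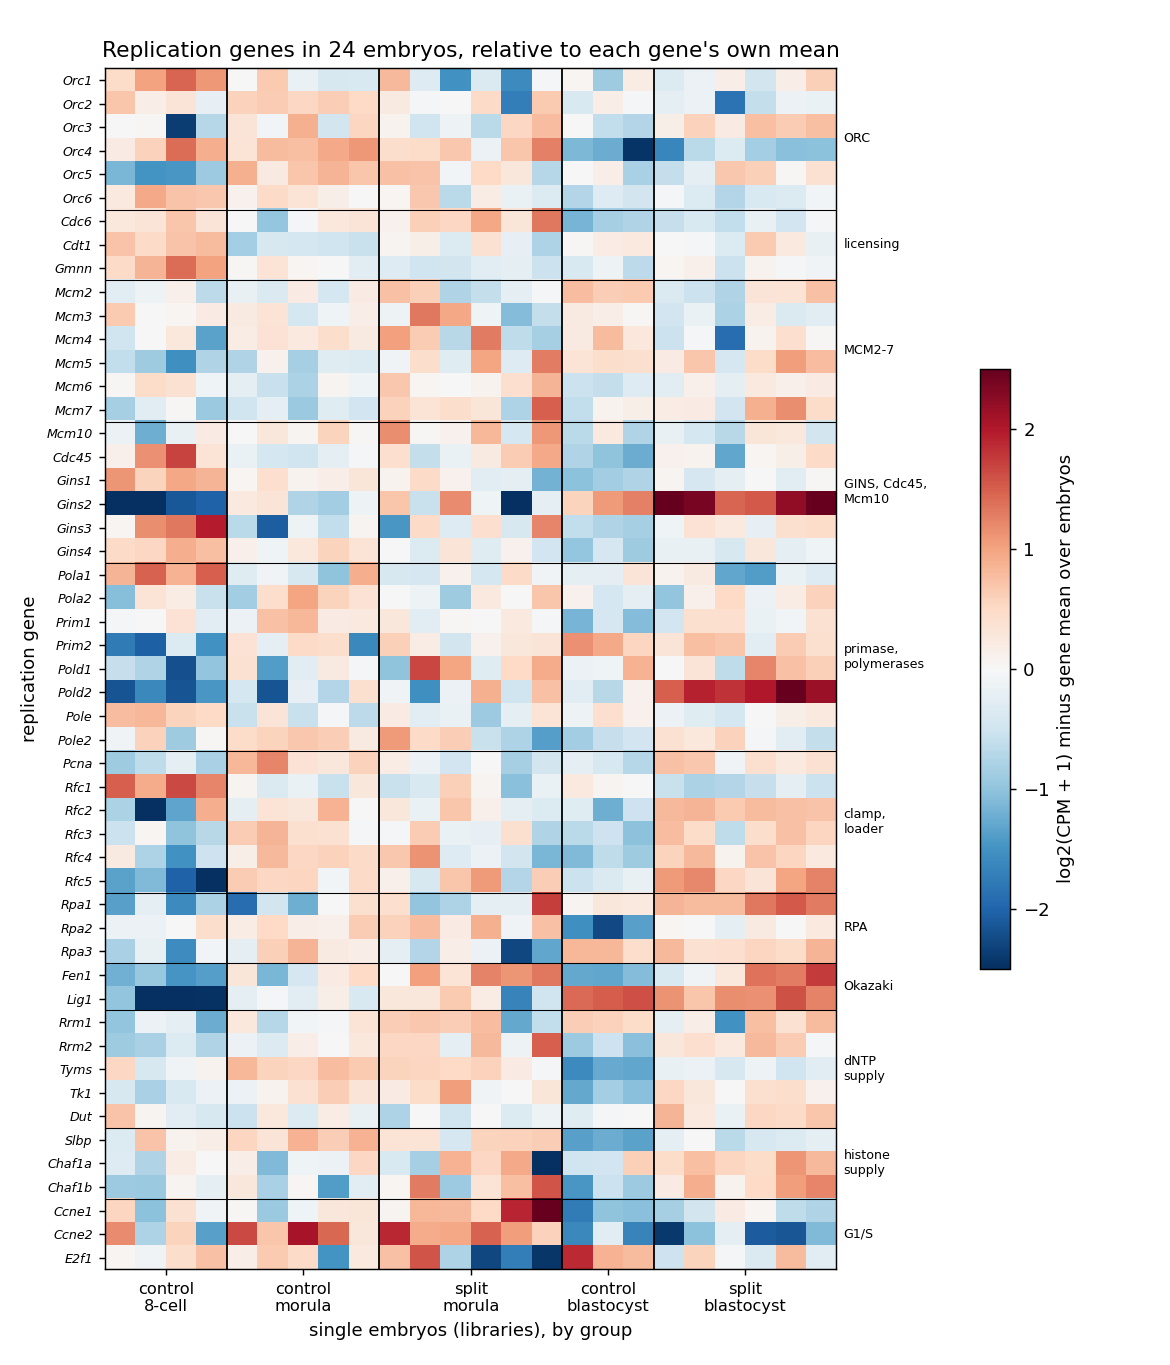
Normalised level of each of the 51 genes (rows, grouped by role) in each of the 24 embryos (columns), as log2(CPM + 1) minus the gene's mean over embryos, red above and blue below it. Control blastocysts are blue for Orc4, Rpa2, Tyms, Tk1 and Slbp, while Gins2 and Pold2 are red in all 6 split blastocysts.

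The first comparison asked how these genes changed in control embryos between the 8-cell stage (n = 4) and the morula (n = 5). Clamp, clamp loader, ligase and nucleotide genes were among those that rose, and Cdt1, Gmnn, Cdc45 and Rfc1 among those that fell. In all, 13 genes rose and 8 fell at a Benjamini-Hochberg adjusted p under 0.05 in edgeR's quasi-likelihood test. That is 41.2% of the 51 genes, against 24.9% of all 15875 genes tested (14.3% higher and 10.7% lower). The median log2 change was 0.45 over the 51 genes and 0.09 over all genes.

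At the origin, Orc5 rose. It stood at 32.8, 25.3, 26.2 and 38.8 CPM in the 8-cell embryos and at 136, 86.4, 120, 133 and 120 CPM in the morulae (log2 change 1.95 ± 0.28 SE, adjusted p = 2.24e-05), and the other 5 subunits did not pass the test. Both partners that control licensing fell. Cdt1, the loader of MCM2-7, was at 123, 105, 124 and 130 CPM in 8-cell embryos against 41.1, 56.5, 55.0, 52.5 and 50.8 in morulae (−1.23 ± 0.20, adjusted p = 7.39e-05). Its inhibitor Gmnn went from 489, 630, 928 and 708 CPM to 356, 445, 361, 350 and 294 CPM (−0.93 ± 0.17, adjusted p = 0.000347). For these 3 genes the embryos of the stages did not overlap. Cdc6 was not called (−0.43 ± 0.23, adjusted p = 0.174).

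Helicase activators moved in both directions. Gins2 had 3.19, 0, 4.55 and 4.96 CPM in the 8-cell embryos and 27.7, 29.2, 13.4, 12.2 and 21.3 CPM in the morulae (2.71 ± 0.76, adjusted p = 0.0132). Gins3 had 20.7, 45.7, 51.3 and 80.0 CPM in the 8-cell embryos and 12.1, 3.98, 18, 12.6 and 20.8 CPM in the morulae (−1.87 ± 0.44, adjusted p = 0.00328). Gins2 did not overlap between the stages, and Gins3 did so by 1 embryo on each side. Cdc45, the GINS partner in the active helicase, fell from 53.5, 109, 161 and 62.1 CPM to 43.8, 35.6, 34.3, 41.9 and 47.6 CPM (−1.25 ± 0.31, adjusted p = 0.00461). Gins1 fell by 0.68 ± 0.19 on the log2 scale, and Gins4 and Mcm10 were not called. None of the 6 MCM2-7 subunits passed the test, with log2 changes between −0.50 (Mcm6) and 0.58 (Mcm4). The Gins2 call ended under 4 of 17 alternatives, with adjusted p up to 0.0769.

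Among the 8 primase and polymerase genes 2 fell and 2 rose. Of these called genes only Pola1 and Prim2 are of the same complex, and they went opposite ways. Pola1, the catalytic subunit of polymerase alpha, was at 128, 199, 130 and 202 CPM and then at 57.0, 66.3, 53.7, 34.8 and 133 CPM (−1.26 ± 0.34, adjusted p = 0.0091), with morula 5 inside the 8-cell range. Pole fell from 62.4, 65.1, 53.8 and 51.5 CPM to 24.1, 45.5, 24.1, 35.2 and 22.5 CPM (−0.94 ± 0.28, adjusted p = 0.0188). Both are catalytic subunits. Prim2, the large primase subunit that works with polymerase alpha, rose from 17.4, 14.2, 48.3 and 20.9 CPM to 78.7, 52.5, 85.7, 84.0 and 19.3 CPM (1.35 ± 0.39, adjusted p = 0.0141), with morula 5 left among the 8-cell values. Pold2 rose from 6.46, 10, 6.47 and 11.2 CPM to 23.6, 6.49, 28.1, 19.2 and 43.0 CPM (1.50 ± 0.41, adjusted p = 0.0108), with morula 2 at the 8-cell level. Prim1, Pola2, Pold1 and Pole2 did not pass the test. Fitted on the compared groups alone, Prim2 and Pold2 lost their calls (adjusted p = 0.0649 and 0.0694).

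The clamp loader changed its balance. Rfc1, the large subunit, fell from 316, 215, 354 and 262 CPM to 118, 86.3, 99.6, 75.3 and 137 CPM (−1.48 ± 0.22, adjusted p = 4.16e-05). Rfc5, a small subunit, rose from 25, 29.5, 15.2 and 6.07 CPM to 101, 92.8, 95.3, 62.3 and 91.3 CPM (2.22 ± 0.36, adjusted p = 9.39e-05). Neither gene overlapped between the stages. Rfc3 and Rfc4 rose by log2 0.98 and 1.03, Rfc2 was not called, and the clamp Pcna rose from 71.5, 85.3, 113 and 74.8 CPM to 238, 309, 170, 161 and 199 CPM (1.32 ± 0.23, adjusted p = 0.000183). Without 8-cell embryo 3 the Rfc4 call ended (adjusted p = 0.0538).

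Lig1, the ligase of the lagging strand, rose from 27.2, 8.12, 2.75 and 9.10 CPM to 46.3, 53.6, 44.6, 61.0 and 41.6 CPM (2.06 ± 0.44, adjusted p = 0.00139), with no overlap. Of the nucleotide genes Rrm2, Tyms and Tk1 rose by log2 0.70, 0.60 and 0.69, while Rrm1 (0.58 ± 0.30) and Dut, which removes dUTP, were not called. Rpa3 rose by 0.93 ± 0.34 (adjusted p = 0.0465), a call that ended without 8-cell embryo 1 or 3 or without morula 2, 3, 4 or 5 (adjusted p = 0.0529 to 0.132). The Tyms call ended without 8-cell embryo 2 (adjusted p = 0.0527) and the Rrm2 call with each split embryo as its own sample (adjusted p = 0.0701). Histone supply genes and G1/S genes held no call.

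**Figure D2:**
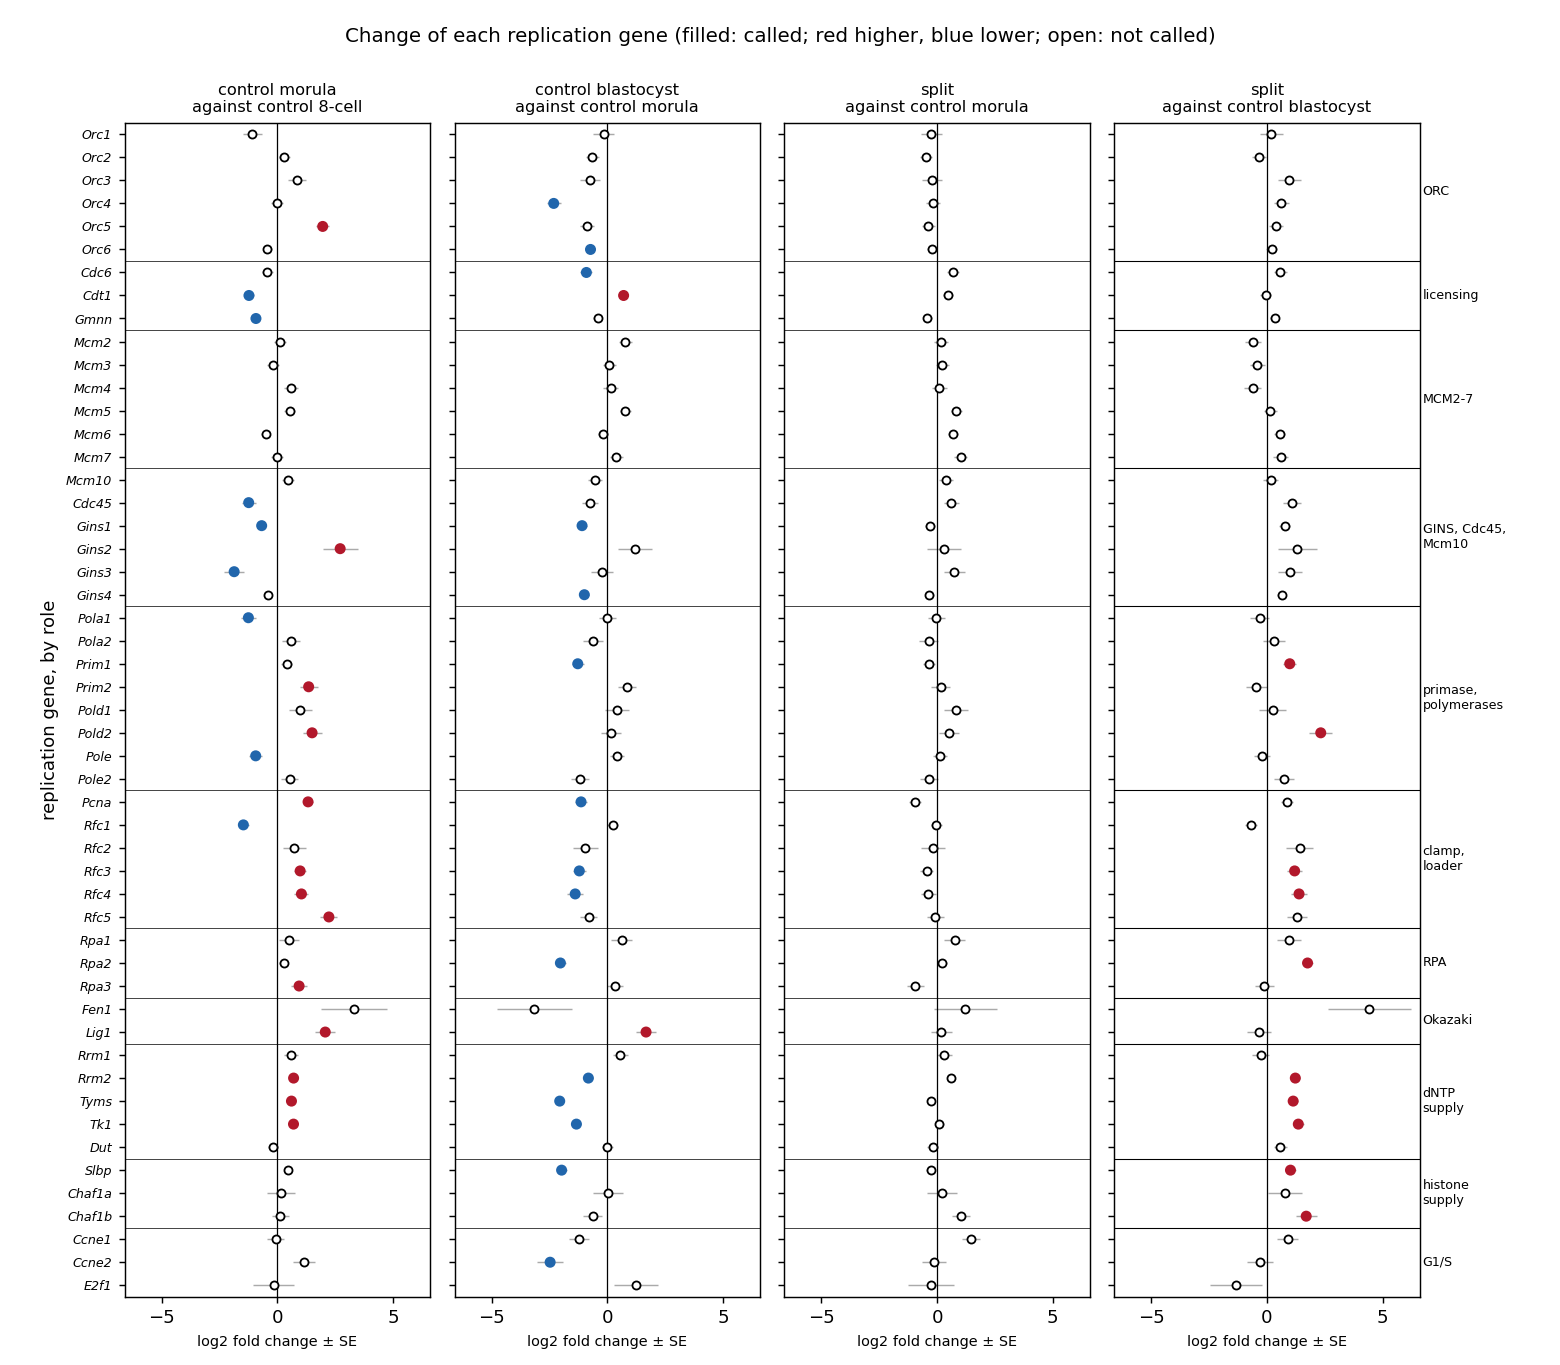
Log2 fold change ± SE (horizontal axis) of each of the 51 genes (vertical axis, by role) in 4 comparisons. Filled points passed an adjusted p of 0.05, red higher and blue lower. The 13 red and 8 blue points of the first panel, the 15 blue of the second, the absence of filled points in the third and the 10 red in the fourth are the calls given in the text.

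From control morula (n = 5) to control blastocyst (n = 3), most of the genes that moved fell, among them nucleotide genes, Orc4, Rpa2, Slbp and cyclin E2. The fall was called for 15 genes and a rise for 2 (Cdt1 and Lig1), 33.3% of the 51 genes against 10.6% of all genes tested (7.46% lower and 3.12% higher). The median log2 change was −0.60 over the 51 genes and 0.11 over all genes. On the deposited TPM values, where the median of all genes shifted to 0.37, limma called 11 genes lower and 8 higher and 22.5% of all genes, and the median of the 51 genes was −0.09, a difference of −0.47 from that of all genes. The 8 higher were Mcm2, Mcm5, Mcm7, Cdt1, Gins2, Prim2, Lig1 and Rrm1, and among the 11 lower were Orc4, Rpa2, Tyms, Tk1, Slbp and Ccne2.

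Of the called genes Ccne2, the cyclin E2 that activates Cdk2 at S-phase entry, fell most. It had 105, 54.0, 140, 90.8 and 40.3 CPM in morulae and 10.1, 26.9 and 9.64 CPM in blastocysts (−2.47 ± 0.56, adjusted p = 0.00486). Orc4 fell from 260, 354, 348, 395 and 433 CPM to 93.2, 85.9 and 36.6 CPM (−2.32 ± 0.31, adjusted p = 2.24e-05). Tyms, thymidylate synthase, fell from 598, 500, 485, 574 and 534 CPM to 111, 141 and 136 CPM (−2.06 ± 0.20, adjusted p = 6.09e-07). In these 3 genes every blastocyst lay below every morula.

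Rpa2, the middle subunit of RPA, was at 193, 242, 192, 187 and 266 CPM in morulae and 58.3, 35.0 and 65.8 CPM in blastocysts (−2.03 ± 0.23, adjusted p = 3.36e-06). Its partner Rpa3 was not called (0.34 ± 0.36, adjusted p = 0.631), nor was Rpa1. Slbp, which binds the stem-loop of histone mRNAs, fell from 509, 437, 634, 533 and 633 CPM to 135, 147 and 137 CPM (−1.98 ± 0.22, adjusted p = 2.18e-06). Rfc4 fell from 239, 379, 311, 324 and 303 CPM to 101, 140 and 116 CPM (−1.39 ± 0.34, adjusted p = 0.00838), with no overlap in either gene. The Rfc4 call ended without blastocyst 1 (adjusted p = 0.0613).

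Further falls, from log2 −1.33 to −0.73, were called for Tk1, Prim1, Rfc3, Pcna, Gins1, Gins4, Cdc6, Rrm2 and Orc6. Blastocyst 3 decided the calls of Rrm2 and Rfc3, whose adjusted p without it was 0.0504 and 0.0611. Cdc6 lost its call without morula 4 or 5 or any 1 blastocyst (adjusted p = 0.0661 to 0.148), and Orc6 lost it without morula 2 or 3 or blastocyst 1 or 3 (adjusted p = 0.0514 to 0.153). Against this direction, Lig1 rose from 46.3, 53.6, 44.6, 61.0 and 41.6 CPM to 148, 157 and 169 CPM (1.68 ± 0.44, adjusted p = 0.0149), and Cdt1 rose from 41.1, 56.5, 55.0, 52.5 and 50.8 CPM to 76.4, 85.6 and 88.4 CPM (0.70 ± 0.21, adjusted p = 0.0337). Neither overlapped between the stages. The Lig1 call ended without blastocyst 3 (adjusted p = 0.0571), and the Cdt1 call ended without morula 1, 4 or 5 or any 1 blastocyst (adjusted p = 0.0512 to 0.14).

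MCM2-7, the helicase itself, held no call at this step either. Per length, the control blastocysts had 125 ± 22.7 TPM of Mcm4, 103 ± 5.80 of Mcm5, 77.2 ± 3.90 of Mcm3, 74.1 ± 12.2 of Mcm6, 59.0 ± 5.54 of Mcm2 and 43.0 ± 12.5 of Mcm7 (SD, n = 3). In this order Mcm4 and Mcm5 lay within their SDs of each other, as did Mcm3 and Mcm6. In 8-cell embryos Mcm6 was first (82.7 ± 13.2) and Mcm2 last (21.9 ± 4.07, n = 4). Without the length correction, the control blastocyst means were 145 CPM for Mcm4, 132 for Mcm5 and 132 for Mcm2. They were 111 CPM for Mcm6, 93.1 for Mcm3 and 61.0 for Mcm7, so the order depends on the length used. In counts, Mcm5 (58.7, 108, 56.0, 80.6 and 79.2 CPM in morulae against 127, 136 and 132) and Mcm2 (71.9, 63.5, 94.6, 59.6 and 93.9 against 140, 125 and 130) had every blastocyst above every morula, with log2 0.78 ± 0.25 (adjusted p = 0.0516) and 0.78 ± 0.29 (adjusted p = 0.0959). DESeq2 called both higher.

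**Figure D3:**
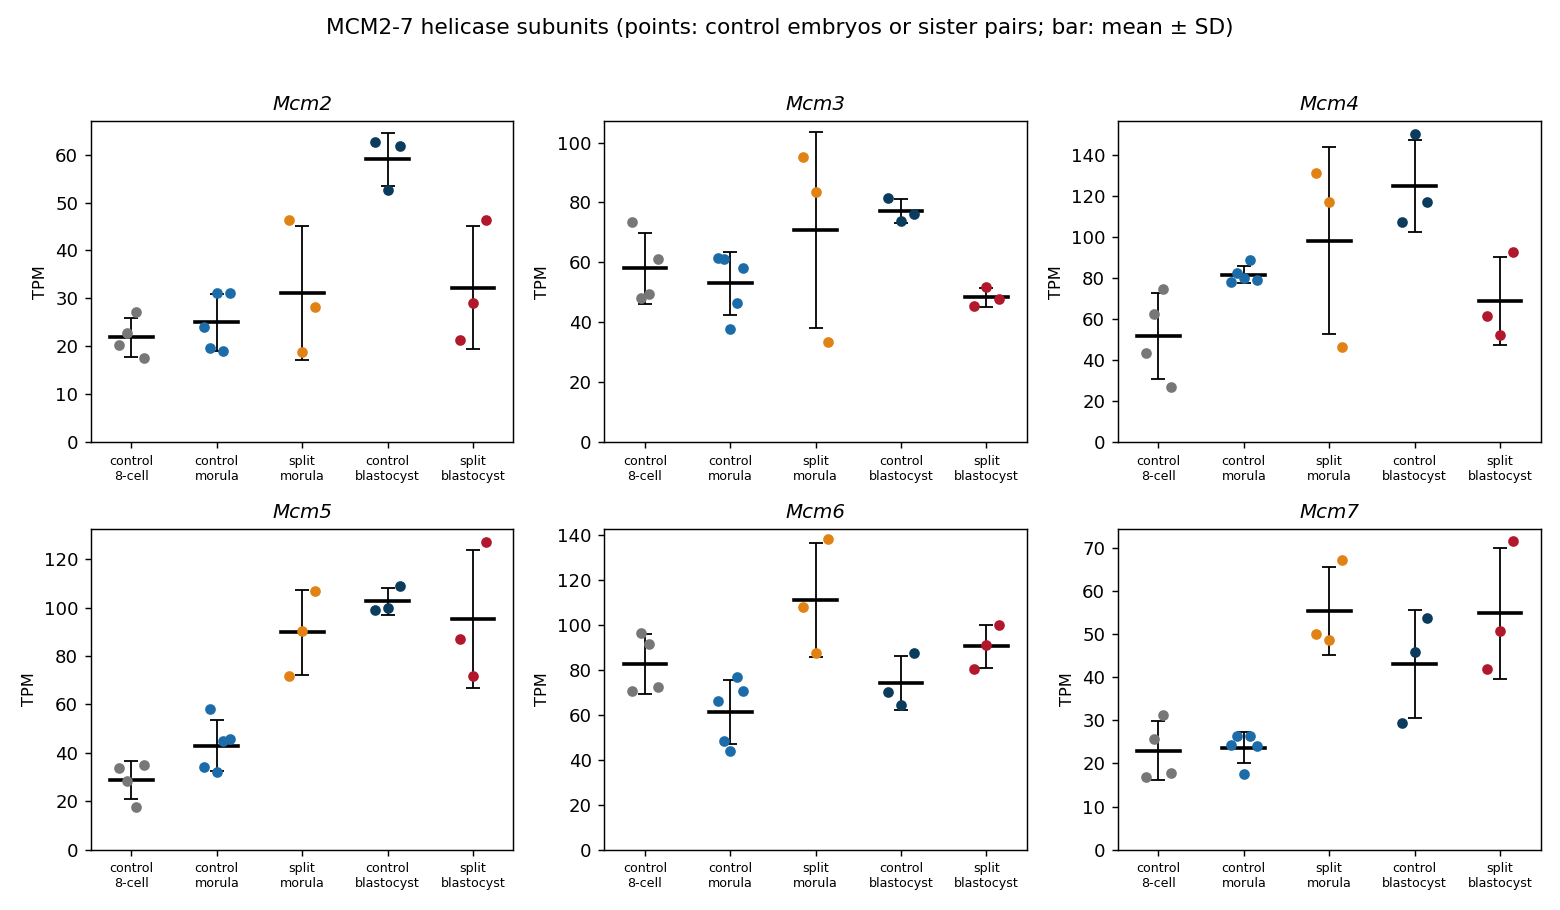
TPM of the 6 MCM2-7 subunits in each control embryo or sister pair of the 5 groups, with mean ± SD, vertical axes from 0. The means of Mcm2 and Mcm5 are 59.0 and 103 TPM in control blastocysts and 21.9 and 28.8 in 8-cell embryos, and split morulae spread most for Mcm3 and Mcm4.

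Split morulae (3 sister pairs, counts of sisters summed) were then compared with control morulae (n = 5). No replication gene passed edgeR's test. Of all genes 0.126% were called (0.0693% higher and 0.0567% lower), and at an unadjusted p under 0.05 there were 11 of the 51 genes and 15% of all genes. The median log2 difference was 0.10 over the 51 genes and 0 over all genes. DESeq2 called 4 of the 50 genes it gave a value for (Mcm5, Mcm7 and Ccne1 higher, Pcna lower) and 4.46% of all genes with a value. With each split embryo as its own sample edgeR called Pcna (adjusted p = 0.0222) and 1.22% of all genes.

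The 4 genes with the smallest unadjusted p were Pcna, Mcm7, Ccne1 and Rrm2. Pcna had 238, 309, 170, 161 and 199 CPM in control morulae and 138, 112 and 85.1 CPM in the split pairs (−0.95 ± 0.25, adjusted p = 0.113). Mcm7 had 45.9, 54.3, 33.8, 52.5 and 46.2 CPM against 90.7, 84.3 and 109 CPM (1.02 ± 0.28, adjusted p = 0.122). Rrm2 had 535, 471, 670, 602 and 715 CPM against 851, 760 and 1100 CPM (0.59 ± 0.18, adjusted p = 0.174). In all 3 the pairs lay outside the control range. Ccne1, cyclin E1, had 160, 81.9, 144, 189 and 193 CPM against 214, 249 and 806 CPM (1.46 ± 0.40, adjusted p = 0.131), with pair 3 far above the other pairs.

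In blastocysts the split embryos (3 pairs) were higher than the controls (n = 3) for 3 of 5 nucleotide genes (Rrm2, Tyms and Tk1), 2 of 6 clamp and loader genes (Rfc3 and Rfc4), 2 of 3 histone supply genes (Slbp and Chaf1b), 2 of 8 primase and polymerase genes (Prim1 and Pold2) and 1 of 3 RPA genes (Rpa2). Of the 51 genes 10 were higher and none lower, 19.6% against 4.74% of all genes (3.42% higher and 1.32% lower). The median log2 difference was 0.60 over the 51 genes and 0 over all genes. This comparison shares its control blastocysts with the step from control morula to control blastocyst. On TPM values 6 genes were higher (Rpa2, Pold2, Fen1, Rrm2, Tyms and Tk1) and none lower, where 5.79% of all genes were called. DESeq2 called 15 higher and 1 (Rfc1) lower of the 48 it gave a value for, and 20.3% of the 6934 genes with a value. Some marker levels also differed between these groups. The summed trophectoderm markers were 4060 to 6240 CPM in split and 1730 to 2670 in control blastocysts. Most of that sum was Krt8 (median 1800 against 547 CPM) and Krt18 (2670 against 718). The medians of Gata3 (788 against 607), Cdx2 (20.4 against 18.3) and Eomes (28.5 against 53.3) did not move in one direction, and their ranges overlapped. The median of Dppa3, a maternal and early embryonic gene, was 6150 against 2920 CPM. Those of the inner cell mass markers were 58.9 against 6.92 (Pou5f1), 204 against 178 (Nanog) and 11.2 against 24.6 (Sox2). Their part in the differences was not tested.

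Of the called genes Pold2 differed most, with 26.4, 19.7 and 35.1 CPM in control blastocysts and 110, 126 and 172 CPM in split pairs (2.33 ± 0.51, adjusted p = 0.00701). Pold1, the catalytic partner in polymerase delta, had 13.8, 14.2 and 28.8 CPM against 17.5, 25 and 24.9 CPM and was not called (0.25 ± 0.59, adjusted p = 0.967). Prim1, the catalytic primase subunit, was higher by 0.99 ± 0.28 (adjusted p = 0.0451). The Pold2 call ended without control blastocyst 2 (adjusted p = 0.0517), and the Prim1 call ended without any 1 split pair or without control blastocyst 1 or 3 (adjusted p = 0.103 to 0.239).

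Rpa2 had 58.3, 35.0 and 65.8 CPM in controls and 174, 176 and 188 CPM in split pairs (1.76 ± 0.24, adjusted p = 0.000146). Rfc4 had 101, 140 and 116 CPM against 350, 301 and 283 CPM (1.39 ± 0.37, adjusted p = 0.0283). Neither overlapped between the groups, though the Rfc4 call ended when any 1 of the 6 units was left out (adjusted p = 0.0582 to 0.149). Rfc3 was higher by 1.20 ± 0.31 (adjusted p = 0.0256), and its call held only without split pair 2 among the units left out in turn (otherwise adjusted p = 0.0558 to 0.13). Rfc2 (101, 53.0 and 86.9 against 223, 209 and 209 CPM) and Rfc5 (44.5, 50.3 and 56.9 against 144, 86.6 and 144 CPM) also did not overlap but were not called (adjusted p = 0.252 and 0.0831). The share of all genes without overlap was not counted, so non-overlap only describes the values.

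Nucleotide supply genes gave most of the calls that held under every alternative run. Rrm2 had 316, 414 and 289 CPM in controls and 758, 898 and 731 CPM in split pairs (1.23 ± 0.21, adjusted p = 0.000836). Tk1, thymidine kinase, had 75.1, 101 and 88.2 CPM against 242, 215 and 220 CPM (1.36 ± 0.23, adjusted p = 0.00086). Tyms was higher by 1.14 ± 0.21 (adjusted p = 0.00207). With Rpa2, these were 4 of the 10 genes called under all 14 alternatives. Rrm1 (166, 162 and 150 against 108, 119 and 168 CPM, −0.28 ± 0.37) and Dut (0.58 ± 0.27, adjusted p = 0.304) were not called.

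Slbp was higher by 1.02 ± 0.23 (adjusted p = 0.00841), a call that ended without split pair 1 (adjusted p = 0.0503). Chaf1b, a subunit of the CAF-1 histone chaperone, had 17.6, 34.2 and 26.2 CPM in controls and 77.8, 63.5 and 112 CPM in split pairs (1.70 ± 0.45, adjusted p = 0.0316). Its call ended without split pair 1 or 3 or any 1 control blastocyst (adjusted p = 0.0523 to 0.184). Chaf1a was not called. No MCM2-7 subunit, no origin recognition subunit, no licensing factor, no helicase activator and no G1/S gene was called, and the MCM2-7 subunits ranged from −0.61 (Mcm4) to 0.60 (Mcm7). The 6 helicase activators ranged from 0.16 to 1.32 (median 0.88). Origin recognition subunits ranged from −0.35 to 0.97 (median 0.30), licensing factors from −0.05 to 0.58 and G1/S genes from −1.34 to 0.89. DESeq2, which called 20.3% of genes with a value, called Cdc45, Gins1 and Gins4 higher. The compared groups alone, where 15.7% of genes were called, gave Cdc45, Gins1, Gins2 and Orc3 higher. Fen1 had the largest difference of the 51 genes (4.43 ± 1.79) at 0.149, 0.135 and 0.305 against 1.38, 4.46 and 7.21 CPM, and was not called (adjusted p = 0.209).

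Whether the split effect itself differed between blastocyst and morula was tested as an interaction. The signed difference, blastocyst minus morula, was above 0 for 6 called genes and below 0 for none, 11.8% of the 51 genes against 1.64% of all genes (1.37% in this direction). The median of the difference was 0.57 over the 51 genes and 0.05 over all genes. On TPM values limma called 0.73% of all genes and none of the 6 (adjusted p = 0.0627 for Pcna and higher for the others). There the median of all genes shifted to −0.23 and that of the 51 genes was 0.13.

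Pcna crossed over. Its split effect was −0.95 ± 0.25 in morulae and 0.87 ± 0.27 in blastocysts (114, 100 and 80.0 CPM in controls against 216, 153 and 167 CPM in split pairs), neither called by itself, with a difference of 1.81 ± 0.37 (adjusted p = 0.0124). Rpa2 had split effects of 0.20 ± 0.21 and 1.76 ± 0.24 and a difference of 1.56 ± 0.32 (adjusted p = 0.0136). Tyms stood at 303, 286 and 263 CPM in split blastocysts and had effects of −0.26 ± 0.19 and 1.14 ± 0.21, with a difference of 1.40 ± 0.28 (adjusted p = 0.0114). In these 3 genes split and control blastocysts did not overlap, a difference that is itself part of the interaction. The calls of Pcna and Tyms each ended without 1 unit, split blastocyst pair 1 for Pcna (adjusted p = 0.052) and control blastocyst 1 for Tyms (adjusted p = 0.0514).

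Rfc3 had 111, 129, 94.9, 92.9 and 69.2 CPM in control morulae, 87.3, 62.7 and 68.8 CPM in split morulae, 44.5, 49.6 and 34.7 CPM in control blastocysts and 110, 74.6 and 111 CPM in split blastocysts (difference 1.64 ± 0.42, adjusted p = 0.0471). Slbp had 443, 382 and 527 CPM in split morulae and 320, 243 and 286 CPM in split blastocysts, against 135, 147 and 137 CPM in control blastocysts (difference 1.30 ± 0.30, adjusted p = 0.0293). Tk1 had 165, 195, 239, 282 and 229 CPM in control morulae and 231, 279 and 204 CPM in split morulae, which overlapped (difference 1.26 ± 0.30, adjusted p = 0.0365). The calls of these 3 genes were the less firm ones. Of 14 units left out in turn, they ended in 13 for Rfc3 (all but control morula 5), 10 for Tk1 and 8 for Slbp, with adjusted p up to 0.142. For Tk1 they were split morula pair 1 or 3, control morula 3, 4 or 5, any split blastocyst pair, and control blastocyst 1 or 3. For Slbp they were split morula pair 1 or 2, control morula 3, split blastocyst pair 1 or 3, and any control blastocyst.

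**Figure D4:**
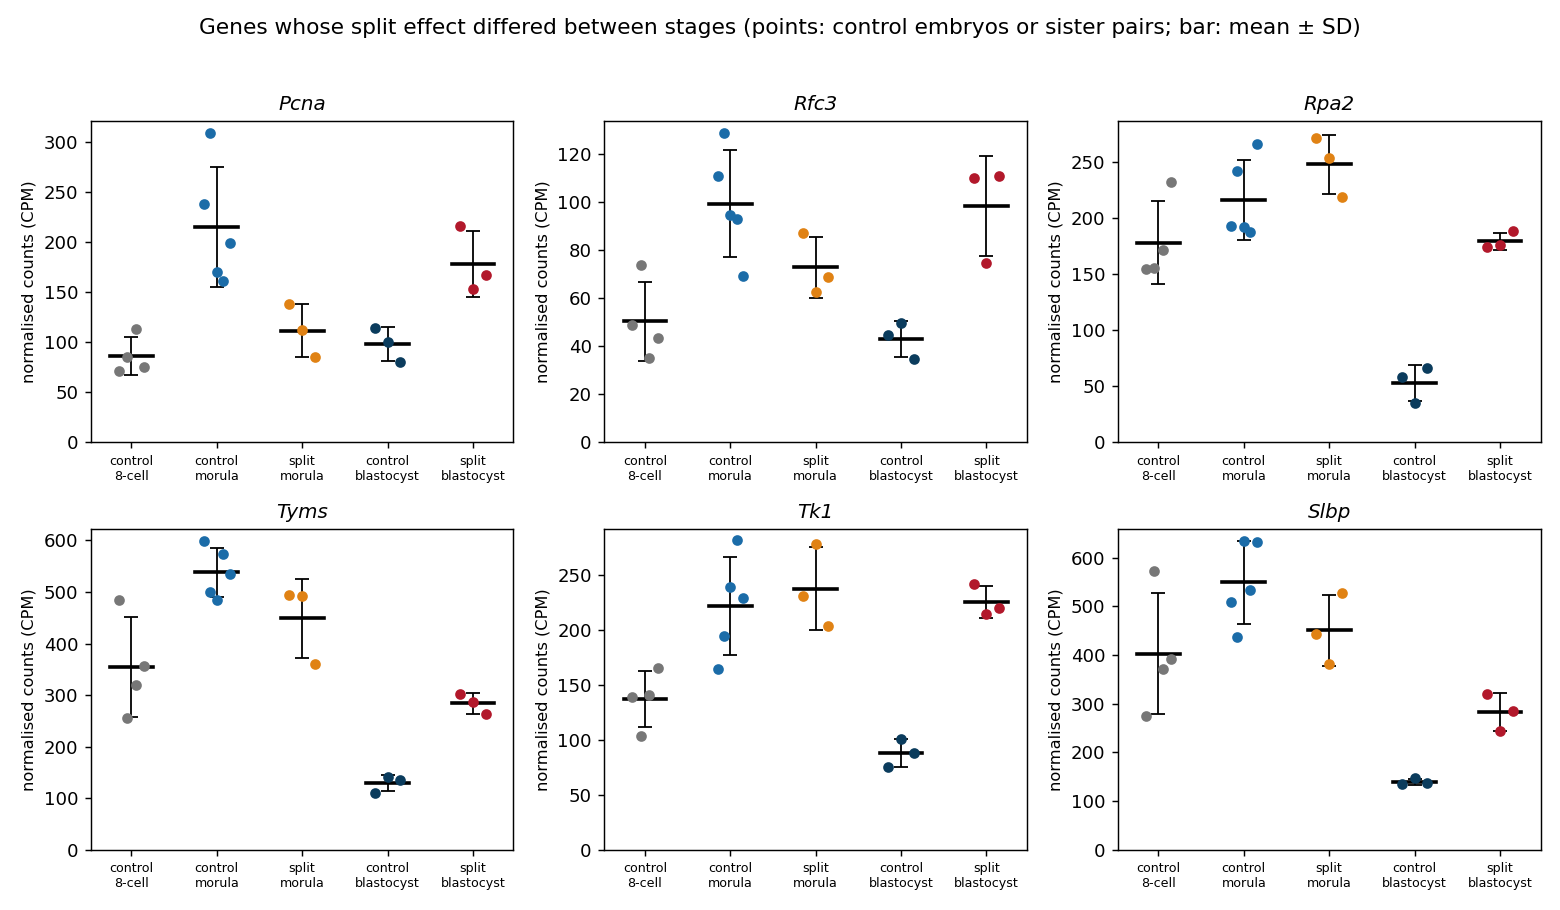
CPM of the 6 genes whose split effect differed between stages, in each control embryo or sister pair, with mean ± SD and vertical axes from 0. In every panel the 3 split blastocyst pairs lie above the 3 control blastocysts, while split and control morulae overlap in all panels but that of Pcna. The 6 genes were picked by a test that includes the blastocyst difference.

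Within the split embryos, the step from morula to blastocyst (3 pairs each) gave 4 lower genes and 1 higher, 9.8% of the 51 genes against 4.17% of all genes (2.95% lower and 1.22% higher), with medians of 0.02 and 0.05. Ccne2 was at 98.0, 78.7 and 59.8 CPM and then at 10.8, 16.2 and 11.3 CPM (−2.63 ± 0.60, adjusted p = 0.0115). Ccne1 went from 214, 249 and 806 CPM to 101, 170 and 96 CPM (−1.79 ± 0.47, adjusted p = 0.0332). Orc4 went from 280, 259 and 411 CPM to 99.1, 135 and 99.6 CPM (−1.51 ± 0.32, adjusted p = 0.00704). Both E-type cyclins and Orc4 had every split blastocyst pair below every split morula pair.

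Cdc6, the MCM2-7 loading ATPase, fell from 115, 152 and 167 CPM to 64.9, 70.5 and 78.4 CPM (−1.02 ± 0.29, adjusted p = 0.0452). Pold2 rose from 21.7, 44.5 and 37.9 CPM to 110, 126 and 172 CPM (1.97 ± 0.50, adjusted p = 0.024). All 5 calls ended in at least 1 of the 6 fits that leave out a pair. Without split blastocyst pair 3 none was left, and the adjusted p was 0.0504 for Orc4, 0.0731 for Ccne2, 0.12 for Cdc6, 0.137 for Pold2 and 0.177 for Ccne1. Without split blastocyst pair 1 the calls of Ccne2 (0.0705), Pold2 (0.0545), Ccne1 (0.167) and Cdc6 (0.185) ended, and without split blastocyst pair 2 those of Pold2 (0.0536) and Cdc6 (0.13). Without split morula pair 3 the calls of Ccne1 (0.29), Pold2 (0.0715) and Cdc6 (0.166) ended, without split morula pair 1 that of Pold2 (0.101), and without split morula pair 2 that of Cdc6 (0.11). Among genes that fell in controls at the same step, Tyms (−0.66 ± 0.21, adjusted p = 0.0793), Slbp (−0.67 ± 0.22, adjusted p = 0.101), Rpa2 (−0.47 ± 0.24) and Tk1 (−0.08 ± 0.22) were not called in split embryos. DESeq2, which called 11.4% of genes with a value, did call Tyms lower. With each split embryo as its own sample, where 14.1% of genes were called, Tyms and Slbp were lower. The difference between the split and control steps is the same quantity as the interaction above and not a further result.

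Sister embryos came from the same two-cell embryo, and their replication genes were compared as the median absolute log2 difference over the 51 genes. It was 0.464, 0.561 and 0.655 for the 3 pairs of split morulae and 0.284, 0.524 and 0.289 for the 3 pairs of split blastocysts. For embryos of the same group that were not sisters, the median was 0.612, 0.559 and 0.685 around the morula pairs and 0.365, 0.375 and 0.333 around the blastocyst pairs. Sisters were closer than this median in 4 of 6 pairs and not in morula pair 2 or blastocyst pair 2. The smallest of the 8 non-sister values was 0.329, 0.329 and 0.502 around the morula pairs and 0.255, 0.297 and 0.255 around the blastocyst pairs. In every pair it was below the sister value. Over all genes the sister medians were 0.444, 0.424, 0.611, 0.383, 0.529 and 0.366, in the same order of pairs. Control embryos of a group differed by 0.439 to 0.548 (8-cell), 0.294 to 0.475 (morula) and 0.211 to 0.278 (blastocyst).

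The differences between sisters that were largest on the log2 scale were those of Gins2 (0.0571 CPM in one sister and 19.8 in the other) and Chaf1a (18.2 and 0), both in morula pair 3 and both genes with uncertain counts. Next came Pold1 in morula pair 1 (7.11 and 51.4) and Orc2 in morula pair 3 (16.1 and 87.5). Genes at higher levels also differed in morula pair 3, with Rrm2 at 542 and 1680 CPM, Ccne1 at 584 and 1040 and Mcm7 at 37.6 and 185. In that pair 15 of the 51 genes differed by more than 1 on the log2 scale, against 11 and 13 in the other morula pairs and 3, 10 and 2 in the blastocyst pairs. The Ccne1 level of pair 3 was above that of every other library in both sisters.

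**Figure D5:**
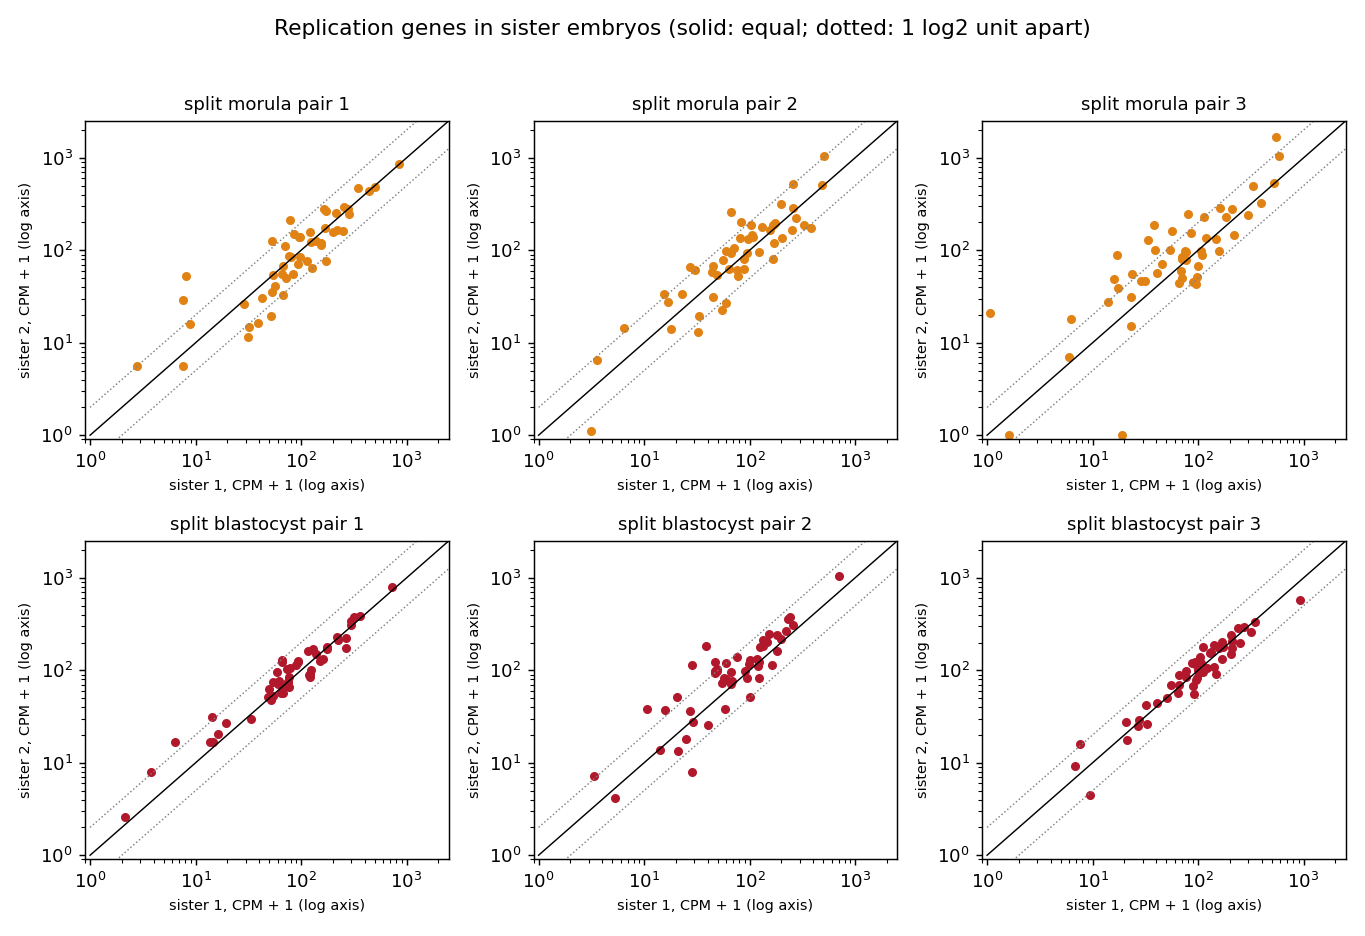
CPM + 1 of each of the 51 genes in one sister (horizontal, log axis) against the other (vertical, log axis) for the 6 sister pairs, with the line of equality and dotted lines 1 log2 unit away. Points leave the dotted band for 15 genes in split morula pair 3 and for 2 in split blastocyst pair 3.

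A second list of 51 replication and G1/S genes outside the first, of which 50 were tested, served for comparison. From 8-cell to control morula 9 rose, led by Uhrf1 (log2 3.60), which recruits the maintenance DNA methyltransferase, Asf1b (1.89) and Mcmbp (1.84), and 11 fell, led by Topbp1 (−2.06), Atad5 (−1.98) and Top1 (−1.48). Of all genes 14.3% rose and 10.7% fell there. From control morula to blastocyst 2 rose (Atad5 1.51 and Top2a 1.09) and 11 fell, led by Pold3 (−1.94), Rnaseh2b (−1.65) and Rbbp4 (−1.29), where 3.12% of all genes rose and 7.46% fell. Split and control morulae differed in none of the 50, where 0.126% of all genes were called. In split against control blastocysts Asf1b (1.11) and Pold3 (0.89), a further accessory subunit of polymerase delta, were higher, and Top2a (−1.47), the topoisomerase that untangles sister chromatids, Mcmbp (−1.02) and Nasp (−0.85) were lower. Of all genes 3.42% were higher and 1.32% lower. The difference of the split effects, blastocyst minus morula, was called below 0 for Top2a (−1.53) and Nasp (−0.92), and for 0.265% of all genes. Within split embryos Pold3 (−1.33), Dtl (−1.16), Rbbp4 (−1.11) and Top1 (−1.05) fell from morula to blastocyst and none rose, where 2.95% of all genes fell and 1.22% rose. The median split effect in blastocysts was −0.02 over these 50 genes.

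Of the 51 genes, 31 passed the test in at least 1 of the 6 comparisons and 20 in none. This is a larger share than that of all genes, of which 5028 of 15875 (31.7%) passed in at least 1. The 20 were Mcm2, Mcm3, Mcm4, Mcm5, Mcm6, Mcm7, Mcm10, Orc1, Orc2, Orc3, Rfc2, Rpa1, Pola2, Pold1, Pole2, Fen1, Rrm1, Dut, E2f1 and Chaf1a. The gene length implied by counts and TPM moved weakly with the differences. Between split and control blastocysts Spearman's rho of log2 change with length was −0.2 over the 51 genes and −0.19 over all genes with a length. For the difference of the split effects it was −0.28 and −0.18, with a median difference of 0.7 in the 26 shorter and 0.19 in the 25 longer genes. In the other comparisons rho over the 51 genes ran from −0.18 to 0.19. This is a description in which genes share the libraries, and the part of length in the results was not tested.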

How the data were processed

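RNA of single embryos was made into Smart-seq2 libraries, which prime cDNA on the poly(A) tail, and 24 libraries were analysed. Per the submitters' processing notes, FastQC, MultiQC, cutadapt, HISAT2, featureCounts and edgeR were used with the genome build GRCm39; their versions, the annotation and the strand setting are not given in the sources used here. The authors deposited raw read counts of 37229 gene symbols and TPM values of 15625 genes.

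Sister counts were added to make 1 unit per pair, so the 5 groups held 18 units. The filter of edgeR (filterByExpr) left 15875 genes, TMM factors scaled the units, and a robust quasi-likelihood fit of all 5 groups (13 residual degrees of freedom) gave two-sided tests (R 4.3.3, edgeR 4.0.16). The threshold was 0.05 on p-values adjusted by Benjamini and Hochberg's method over all tested genes. CPM uses these scaling factors, and log2 changes are given ± SE. DESeq2 1.42.0, limma 3.58.1 on log2(TPM + 1) or log2(TPM + 0.1), other scaling, no filter, each split embryo as its own sample, the compared groups alone, a replicate block and leaving out each unit were the alternatives. On the TPM scale the pseudocount understates changes of low genes.

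The genes, their roles and the comparison list were chosen with earlier results of these data known. Genes given with values by embryo were, in each comparison, the called ones with the largest changes, up to 6 in a direction, or the 4 with the smallest unadjusted p where none was called, and the highest and lowest of each role. Others named were chosen after their values were seen. Where groups are said not to overlap, the share of all genes that did the same was not counted. Non-overlap therefore describes the values and is no further test. The labels do not say whether control replicates came from separate litters or cultures, so p-values measure only the spread between these units, which may be partly technical. No 2 columns of counts were identical, and correlations of log2 CPM within groups ran from 0.823 to 0.955. The libraries have no molecular identifiers. Promoters came from RefSeq (GRCm38.p6) and exon overlaps from GENCODE, a build other than that of the counts.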

Additional observations from a re-analysis of the deposited data

Results flagged for a closer look

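The split effect, signed and taken as blastocyst minus morula, differed between blastocysts and morulae, by the interaction test, for 6 genes, on the log2 scale by 1.815 for Pcna, 1.644 for Rfc3, 1.56 for Rpa2, 1.398 for Tyms, 1.256 for Tk1 and 1.305 for Slbp. In all 6 the 3 split blastocyst pairs lay above the 3 control blastocysts, and 5 of them were also among the 10 genes called there, the exception being Pcna. The interaction test includes this blastocyst difference on the same units, so neither fact is separate support.

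Single embryos stood apart from their group in 2 of 102 gene and group combinations, in the groups of 4 and 5 embryos that allow this check, and chance flags about 1 in 20 groups. Cdc6 was at 146 CPM in control 8-cell embryo 3 and between 109 and 114 CPM in the others. Rfc5 was at 62.3 CPM in control morula 4 and between 91.3 and 101 CPM in the others.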

How the results depend on the processing

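Directions were the same in every alternative run for every gene called in a comparison, and of 1035 values of single genes 858 kept their side of the threshold, 173 lost a call and 4 gained one. In control morula against 8-cell no alternative moved the count of 21 called genes by 1.5 times, and leaving out 1 unit gave 19 to 23. In control blastocyst against control morula the 17 calls became 11 to 18 with 1 unit left out (11 without control blastocyst 3). In split against control morula the 0 calls became 4 with DESeq2 (4.46% of all genes called, against 0.126%) and 1 when sisters were not summed (1.22%), and stayed 0 with any 1 unit left out. In split against control blastocyst the 10 calls became 16 with DESeq2. There DESeq2 called 1407 of the 6934 genes it gave an adjusted p (20.3%), where edgeR called 752 of 15875 (4.74%), so the bases are unlike. Each DESeq2 share in this paragraph is of the genes with an adjusted p in DESeq2. The 10 calls became 20 in the compared groups alone (15.7% of the genes tested there) and 6 with limma on either TPM scale. With 1 unit left out they became 5 to 8 (5 without split pair 1, 6 without split pair 3 or any control). In split blastocyst against split morula the 5 calls became 9 with DESeq2 (11.4% of all genes called, against 4.17%), 11 with each embryo as its own sample (14.1%), 3 with no filter or the compared groups alone, and 0 to 4 with 1 unit left out (2 without morula pair 3, 1, 3 and 0 without blastocyst pair 1, 2 and 3). For the difference of the split effects the 6 calls became 10 with DESeq2 (5.97% of all genes called, against 1.64%), 0 with limma on either TPM scale, and 2 to 5 with 1 unit left out (2 without split blastocyst pair 1 or control blastocyst 1, 3 without split blastocyst pair 3, control blastocyst 3 or control morula 3). The cause of these shifts was not tested.

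Across groups, 1 of 13 correlations of deviations between units of the same replicate number was above 0.1 (0.151, control and split blastocyst number 3). Units of different number were not compared, so these values cannot show whether the numbers pair units. With the number as a replicate block the 6 comparisons gave 20, 14, 0, 9, 3 and 3 calls, in the order above. Groups of 3 units limit what can be called, and the control blastocysts had the fewest reads.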
